A study of Mus musculus with 6 samples.

Results

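Imprinted genes are transcribed from the allele of 1 parent only, and the members described here, H19, Meg3, Rian, Mirg, Cdkn1c, Phlda2, Igf2r, Grb10 and Slc22a18, are known to be expressed from the maternal allele in most mouse tissues that use them. They were chosen by name, and all 9 were found among the 32285 rows of the count table, each under 1 identifier. All 9 passed the filter on low counts that left 15104 genes for testing. Expression was measured in GS (germline stem) cells, cultured spermatogonia that can restore spermatogenesis, kept on mouse embryonic fibroblast (MEF) feeders with GDNF and FGF2. They came from testes of pups aged 2 to 3 days. In both groups the label gives the strain as DBA/2 and the cells carried the transgene Tg14(act-EGFP-OsbY01), which drives EGFP from an actin promoter. Per the methods, that transgene came from a C57BL6 line and was crossed into DBA/2. The cells had been frozen for 6 months, either on the International Space Station (Space, 3 libraries) or on Earth (Ground, 3 libraries), and per the methods RNA was taken on the day after thawing without passage. Groups follow the sample titles. The treatment label states the opposite of the title in all 6 libraries, so the sign of each difference between Space and Ground rests on the titles.

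The libraries held between 19015985 and 24110916 counts, and mitochondrial transcripts took 2.51% to 11.5% of them. Pearson's r of log2 CPM (read counts scaled to library size) across all tested genes, which are not independent replicates, was between 0.984 and 0.996 for any pair of libraries. Once every gene was centred on its mean, each library had its highest r to a library of the other group. The couples were Ground-1 and Space-3 (r of 0.56), Ground-3 and Space-1 (0.47) and Ground-2 and Space-2 (only 0.096). No couple was a copy, since the counts of the closest (Ground-1 and Space-3) differed by 1.83 times the variance that sampling noise gives. That is close to sampling noise, while every other couple differed by 13.7 to 111 times that variance. The tests between groups below treated Ground-1 and Space-3 as independent libraries. By this measure Ground-3 was closer to Space-2 (13.7) than to Space-1 (24.3). All 18 listed markers of undifferentiated spermatogonia were tested, among them Dazl and Ddx4, which encode RNA-binding and RNA-unwinding proteins of germ cells, and their summed level was 3580 to 3715 CPM.

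Genomic imprints are DNA methylation marks laid down in the parental germlines at differentially methylated regions and kept through cell division. In male germ cells the marks are reset to the paternal state, in which the control regions of H19 and of the Meg3 cluster are methylated and that of Igf2r is not. On chromosome 7, H19 is a noncoding RNA that shares enhancers with the paternally expressed growth factor gene Igf2, and the neighbouring domain of Cdkn1c, Slc22a18 and Phlda2 is controlled by the paternally expressed noncoding RNA Kcnq1ot1. On chromosome 12, Meg3, Rian and Mirg form a row of noncoding RNAs opposite in allele to Dlk1. The counts measured here do not separate the alleles.

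The 9 genes lay on 4 chromosomes (GENCODE M21, GRCm38, the assembly of mm10). H19 spans positions 142575529 to 142578143 of chromosome 7 on the minus strand, and 72622 bases separate it from Igf2. Cdkn1c (143458339 to 143461050), Slc22a18 (143473736 to 143499334) and Phlda2 (143501545 to 143503150) follow on the same chromosome, with only 2210 bases between Slc22a18 and Phlda2. Meg3 (109541001 to 109571726), Rian (109603940 to 109661716) and Mirg (109729764 to 109749460) lie on the plus strand of chromosome 12, with gaps of 32213 and 68047 bases. Igf2r lies on chromosome 17 (12682406 to 12769664) and Grb10 on chromosome 11 (11930508 to 12038683), both on the minus strand. Cdkn1c shares exonic bases with the antisense gene Gm44732, which had 4 to 17 counts a library against 821 to 1051 for Cdkn1c. Igf2r overlaps the antisense RNA Airn without shared exonic bases, and Airn had 5 to 9 counts. The strand setting of the counting was not stated, so reads of such partners cannot be told apart.

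Of the members, 4 are noncoding RNAs whose transcribed span also holds microRNAs, and a few of these are shown because the host RNA counts below are the only readout of these transcripts here. The span of H19 holds 2 mature microRNAs, that of Meg3 3, that of Rian 6 and that of Mirg 26, 37 in all with 36 different seeds (bases 2 to 8). The sequences are from RefSeq (GRCm38.p6), with the seed in capitals, for H19 (miR-675-5p), Meg3 (miR-770-5p), Rian (miR-370-3p) and Mirg (miR-134-5p and miR-410-3p). The last 2 of the lines, both from Mirg, carry the 1 seed that occurred more than once. The mature microRNAs themselves were not analysed here.
mmu-miR-675-5p: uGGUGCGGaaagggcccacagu
mmu-miR-770-5p: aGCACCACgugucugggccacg
mmu-miR-370-3p: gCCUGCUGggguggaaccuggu
mmu-miR-134-5p: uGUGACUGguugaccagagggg
mmu-miR-410-3p: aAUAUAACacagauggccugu
mmu-miR-453: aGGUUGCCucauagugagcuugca
mmu-miR-496a-5p: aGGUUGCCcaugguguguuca

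RefSeq promoter windows (GRCm38.p6), 250 bases before to 50 bases after the annotated start, were matched for 7 of the 9 members, all but H19 and Cdkn1c. The windows of the 3 chromosome 12 RNAs, whose levels varied together between libraries, and that of Igf2r are given in the direction of transcription. Igf2r was the member whose CPM varied least. Capitals mark CpG dinucleotides, the usual site of DNA methylation in mammals. The Meg3 window is chr12:109540746-109541045 (plus strand), that of Rian chr12:109603695-109603994 (plus), that of Mirg chr12:109734731-109735030 (plus) and that of Igf2r chr17:12769657-12769956 (minus).
Meg3: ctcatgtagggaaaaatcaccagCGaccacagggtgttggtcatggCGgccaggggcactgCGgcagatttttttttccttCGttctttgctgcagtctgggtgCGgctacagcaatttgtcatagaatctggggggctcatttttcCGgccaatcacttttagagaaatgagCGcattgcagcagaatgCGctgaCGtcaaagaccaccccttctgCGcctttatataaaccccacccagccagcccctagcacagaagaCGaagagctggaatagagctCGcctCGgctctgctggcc
Rian: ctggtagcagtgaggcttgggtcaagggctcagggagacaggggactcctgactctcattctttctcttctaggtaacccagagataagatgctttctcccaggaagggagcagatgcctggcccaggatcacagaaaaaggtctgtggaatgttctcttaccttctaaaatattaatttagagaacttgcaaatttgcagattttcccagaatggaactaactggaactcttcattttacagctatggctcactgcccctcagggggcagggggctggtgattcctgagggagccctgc
Mirg: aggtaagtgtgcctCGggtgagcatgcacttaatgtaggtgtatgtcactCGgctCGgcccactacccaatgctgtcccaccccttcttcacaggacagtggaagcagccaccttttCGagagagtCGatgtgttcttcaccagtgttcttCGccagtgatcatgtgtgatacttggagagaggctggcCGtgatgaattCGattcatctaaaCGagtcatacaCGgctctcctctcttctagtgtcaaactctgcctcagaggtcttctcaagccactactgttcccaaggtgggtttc
Igf2r: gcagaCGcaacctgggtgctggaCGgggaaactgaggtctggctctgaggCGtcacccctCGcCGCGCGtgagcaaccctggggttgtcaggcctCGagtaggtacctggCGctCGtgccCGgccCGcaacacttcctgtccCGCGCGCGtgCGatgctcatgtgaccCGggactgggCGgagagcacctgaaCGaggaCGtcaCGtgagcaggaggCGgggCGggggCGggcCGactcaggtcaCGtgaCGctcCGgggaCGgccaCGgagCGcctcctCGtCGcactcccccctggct

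The Igf2r window held 34 CpG and the Grb10 window at position 12037371 held 45, whereas the 32851 windows of that length had a median of 7. Phlda2 had 26, the Meg3 window shown had 13, Mirg 10, Slc22a18 2 and Rian 0. A second window of Meg3 had 1 and a second window of Grb10 had 9. The Mirg window lies inside the gene as GENCODE draws it and overlaps the mature sequences of miR-668 and miR-485. On either strand the Meg3 window held a TATA box (TATAAA, found in 13.6% of all windows) starting 25 bases before the start, which overlaps a match on the other strand, and a cAMP response element (TGACGTCA, 1.79% of windows) 57 bases before it. A CCAAT box (CCAAT, 37.4%) occurred 100 bases before the Meg3 start, 184 bases before that of Mirg and 193 bases before that of Phlda2. Phlda2 had a TATA box 30 bases before its start. GC boxes (GGGCGG, 35.7%) numbered 3 in Igf2r, 2 in Phlda2 and 5 in the CpG-rich Grb10 window. These are matches of letters in the window only.

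Levels were first compared between members per length, as CPM after trimmed mean of M-values (TMM) scaling divided by the kilobases of annotated exons. H19 was highest with 58.5 ± 9.99 CPM per kb (SD over the 6 libraries), followed by Igf2r with 36.5 ± 1.28, Cdkn1c with 20.2 ± 2.83 and Phlda2 with 3.81 ± 0.843. These 4 came in the same order in 6 of 6 libraries and their ranges did not overlap. Rian (1.22 ± 0.311) stood below the lowest value of Phlda2, then came Grb10 (0.791 ± 0.220), Slc22a18 (0.434 ± 0.158), Meg3 (0.429 ± 0.122) and Mirg (0.253 ± 0.124). Among the 5 lower members the ranges of neighbours overlapped. Within each library, Rian was above Grb10, Grb10 above Slc22a18 and Meg3 above Mirg in 6 of 6. Slc22a18 was above Meg3 in only 2 of 6 libraries, so that this couple did not differ beyond its spread. Per length the 3 noncoding RNAs of chromosome 12 therefore sat far below H19, the noncoding RNA of chromosome 7. These values assume that every annotated exon is transcribed, which for Meg3 and Rian means 18089 and 18234 bases.

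**Figure D1:**
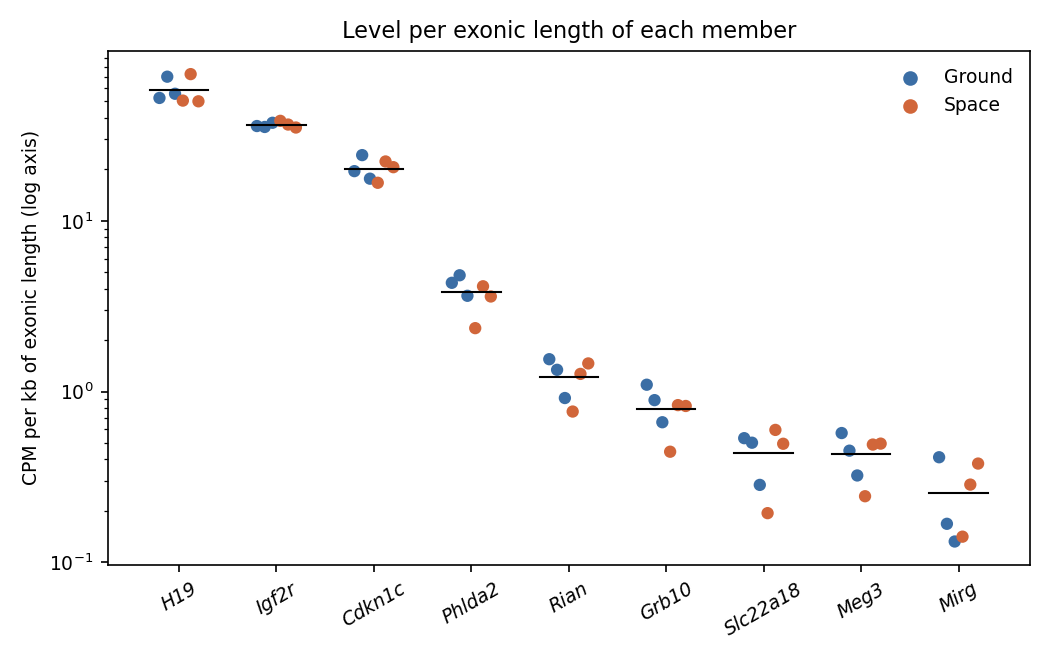
Level of each member in CPM per kb of exonic length on a log axis, with 1 point per library (blue for Ground, orange for Space) and a line at the mean of the 6 libraries. H19 (50.1 to 72.3), Igf2r (35.2 to 38.5), Cdkn1c (16.7 to 24.3) and Phlda2 (2.35 to 4.80) occupy separate ranges, and Mirg is lowest.

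To ask whether storage on the ISS changed these genes, Space and Ground were compared with edgeR's quasi-likelihood test over all 15104 genes. None of the 9 members passed an adjusted p of 0.05, where the share over all genes was 0 (0 genes). At an unadjusted p under 0.05 there were 0 members and 92 genes, and DESeq2 and limma-voom also called 0 members and 0 genes, with 45 and 88 genes at an unadjusted p under 0.05. In 0 of the 9 did the 3 libraries of a group all lie above those of the other, against 3.59% of all tested genes. The log2 fold change (Space minus Ground) was above 0 in 2 members and below 0 in 7, with a median of -0.054, beside -0.0020 over all tested genes. Each member had an edgeR adjusted p of 0.9999. Without Space-1, the lowest library for most members, the log2 fold change turned from below to above 0 for Meg3 (0.13), Rian (0.11), Cdkn1c (0.066), H19 (0.046) and Slc22a18 (0.30), and from above to below 0 for Igf2r (-0.016).

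**Figure D2:**
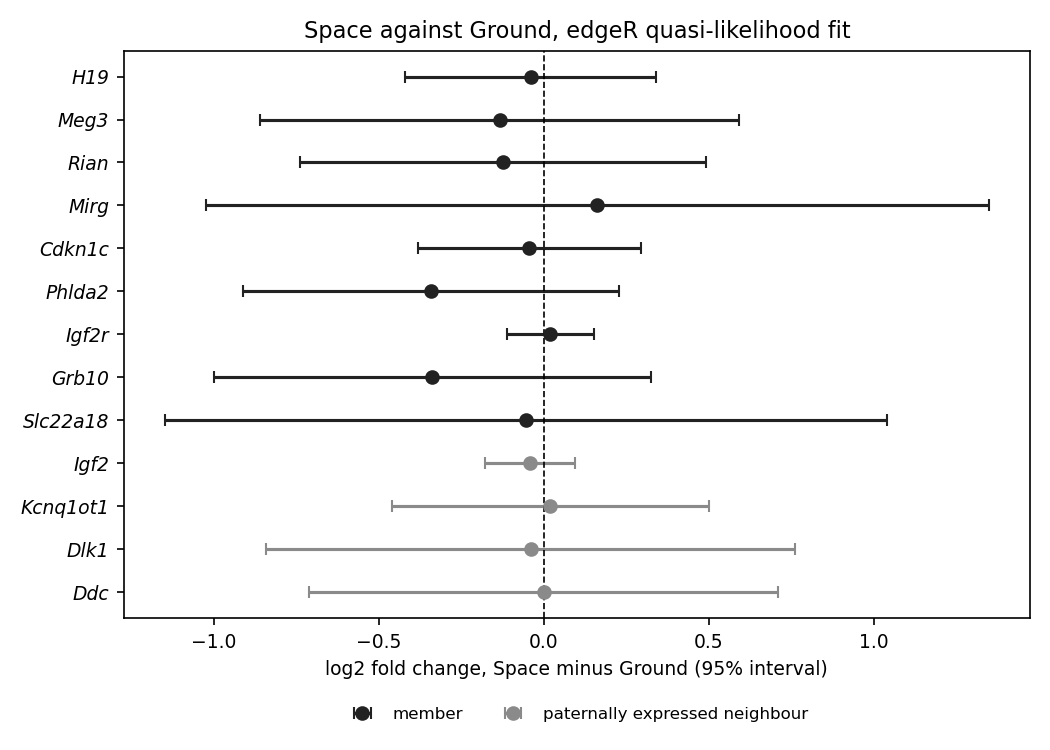
Log2 fold change of Space against Ground with its 95% interval for the 9 members (black) and for 4 paternally expressed genes of the same clusters (grey). Every interval includes 0, from the narrowest among members for Igf2r (-0.11 to 0.15) to the widest for Mirg (-1.02 to 1.35).

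In the order of replicate numbers, used for every gene from here on, H19 had 129, 172 and 137 CPM in the Ground libraries and 124, 178 and 123 CPM in the Space libraries. The Ground-2 and Space-2 libraries were the highest and the groups overlapped fully. The mean was 146 ± 22.9 CPM in Ground and 142 ± 31.2 CPM in Space (SD, n = 3), and Space against Ground gave a log2 fold change of -0.040 (SE 0.16, 95% interval -0.42 to 0.34). Igf2, its paternally expressed neighbour, encodes a growth factor and stayed within 109 to 120.2 CPM, with a log2 fold change of -0.042 (SE 0.059). H19 made up 52.6%, 58.8% and 54.8% of the counts of H19 and Igf2 for Ground, and 52.9%, 59.9% and 53.0% for Space. The exact (Clopper-Pearson) 95% intervals were 57.5% to 60.1% for Ground-2 and 58.6% to 61.2% for Space-2, and 51.4% to 53.9% for Ground-1, covering counting error only. The share was thus highest in the libraries numbered 2 of both groups, and the group means of 55.4% ± 3.14 and 55.3% ± 3.99 (SD, n = 3) differed by less than the SD within either group (2-sided exact permutation p = 1). With 3 libraries a group this test cannot go below 0.1, and over the 8 shares compared the Benjamini-Hochberg adjusted exact p was 0.8 to 1. Those libraries also had the largest mitochondrial shares, 11.5% in Ground-2 and 7.12% in Space-2. They had the fewest counts in all as well, 19930234 and 19015985. Before scaling, H19 had 3023 to 3339 counts a library. Whether depth or the mitochondrial share bears on H19 was not tested.

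Igf2r, the receptor that carries lysosomal enzymes and removes IGF2 from the cell surface, was the steadiest member. It had 334, 330.1 and 349 CPM in Ground and 358, 341 and 328 CPM in Space. The coefficient of variation over the 6 libraries was 3.51%, lower than that of most genes (7.78% of tested genes had a lower one), against a median of 10.6% over all tested genes. The log2 fold change was 0.019 (SE 0.057, 95% interval -0.11 to 0.15), the narrowest interval among the members. Airn, the paternal antisense RNA known to silence Igf2r in cis, did not pass the filter and stood at 0.247 to 0.480 CPM. Igf2r made up 99.86% to 99.93% of the counts of both. All shares here are of counts and were not divided by length, which was 9308 exonic bases for Igf2r and 3597 for Airn. The 3 Ground libraries lay above the 3 Space libraries in this share, with the smallest p that the 2-sided exact permutation test allows here (0.1, or 0.8 after adjustment), a difference that rests on 5 to 7 counts of Airn a library in Ground and 8 to 9 in Space.

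Cdkn1c encodes a cyclin-dependent kinase inhibitor that restrains growth. It had 39.8, 49.5 and 36.0 CPM in Ground and 34.1, 45.4 and 42.0 CPM in Space. As for H19, a library numbered 2 was the highest in each group, and the group means of 41.8 ± 6.94 and 40.5 ± 5.83 CPM (SD, n = 3) were closer than the libraries within a group. The log2 fold change was -0.044 (SE 0.15, 95% interval -0.38 to 0.29). Kcnq1ot1 lay between 5.06 and 8.48 CPM with a log2 fold change of 0.020 (SE 0.21). Cdkn1c made up 83.2% to 90.0% of the counts of both, most in Space-2 and Ground-2 (2-sided exact permutation p = 0.8 between groups). The annotated exons cover 2039 bases for Cdkn1c and 93092 for Kcnq1ot1.

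Phlda2 encodes a small protein with a pleckstrin homology domain that limits placental growth. It had 4.86, 5.38 and 4.08 CPM in Ground and 2.64, 4.64 and 4.04 CPM in Space. Space-1 was the lowest library, and Space-2 lay inside the range of Ground. The means were 4.77 ± 0.655 and 3.77 ± 1.03 CPM (SD, n = 3). The log2 fold change of -0.34 (SE 0.25, 95% interval -0.91 to 0.23) was, with that of Grb10, the largest in size among the members and did not pass the test. Slc22a18, a membrane transporter gene of the solute carrier family that lies beside Phlda2, was the weakest member by CPM, with 8 to 22 counts a library. Its values were 0.906, 0.852 and 0.482 CPM in Ground and 0.329, 1.01 and 0.840 CPM in Space, for a log2 fold change of -0.054 (SE 0.47). The 95% interval of -1.15 to 1.04 was wide at this depth and spread and includes changes in both directions. It is not adjusted for the number of genes tested and is not a limit of detection.

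Grb10 encodes an adaptor protein that dampens signalling of the insulin and insulin-like growth factor receptors. It had 9.96, 8.09 and 6.01 CPM in Ground and 4.04, 7.57 and 7.48 CPM in Space. Ground-1 was the highest and Space-1 the lowest library, and the other 4 spanned both groups. The means of 8.02 ± 1.98 and 6.36 ± 2.01 CPM (SD, n = 3) gave a log2 fold change of -0.34 (SE 0.29, 95% interval -1.0 to 0.32). Ddc, a neighbour that encodes an enzyme of dopamine and serotonin synthesis, had 1.33 to 2.56 CPM and a log2 fold change of -0.0013 (SE 0.31). Grb10 made up 71.0% to 85.0% of the counts of both (2-sided exact permutation p = 0.5 between groups).

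**Figure D3:**
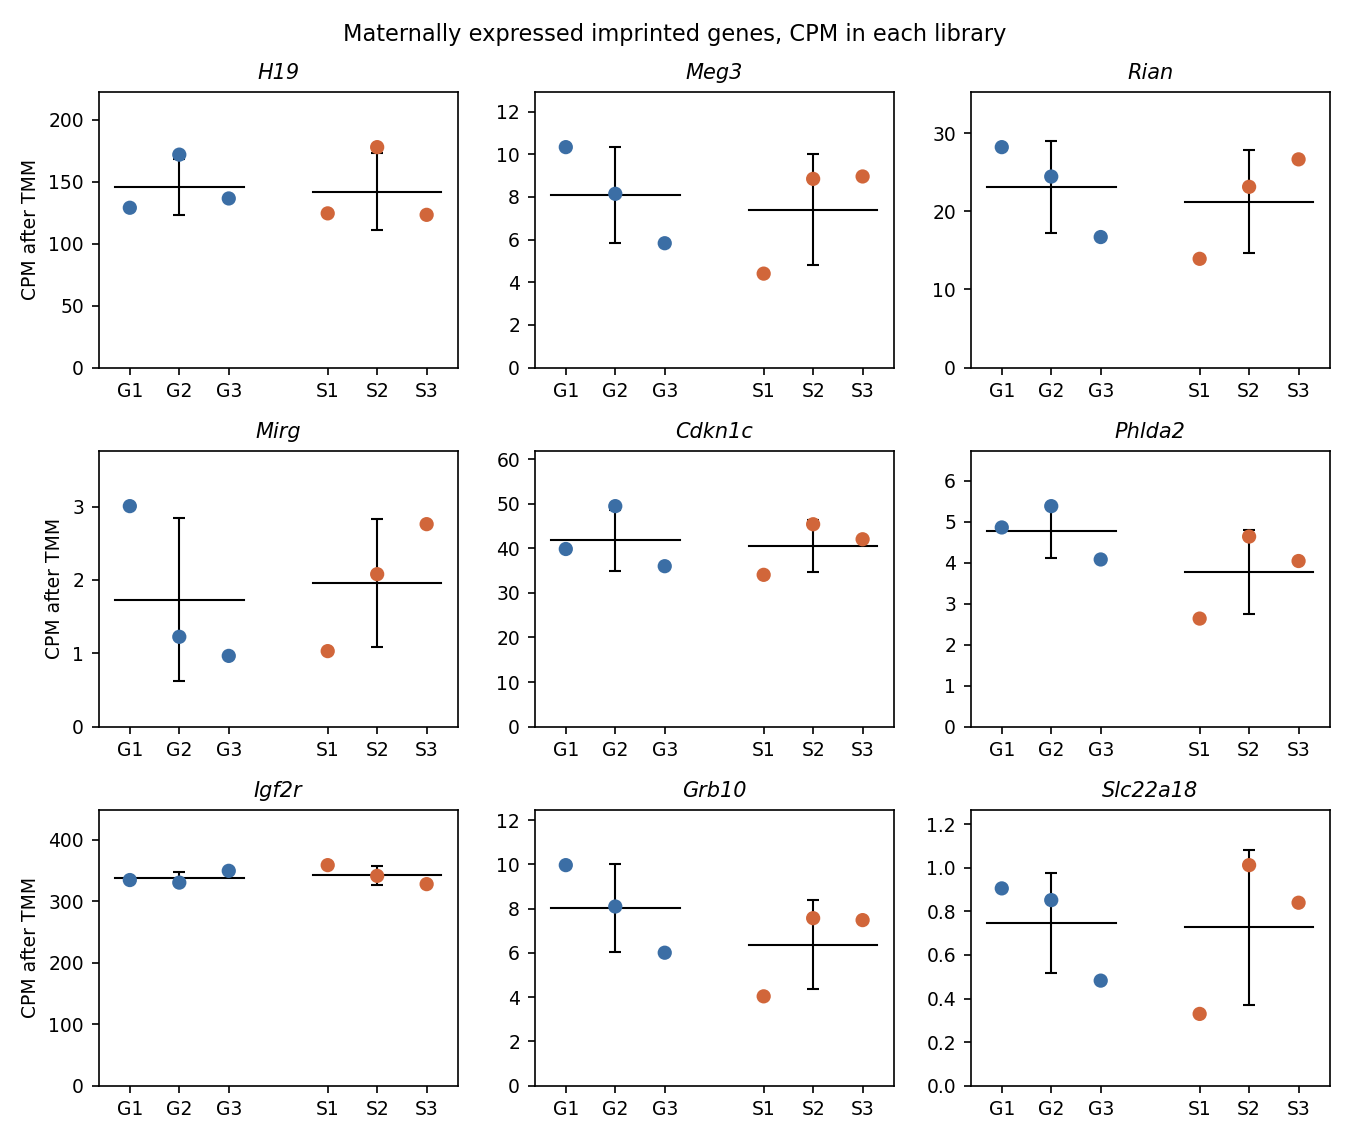
CPM after TMM scaling of each member in the 3 Ground libraries (blue, G1 to G3) and the 3 Space libraries (orange, S1 to S3), with the mean (line) and SD (bar) of each group. The groups overlap in all 9 panels, and Space-1 is the lowest library in 6 of them.

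The 3 noncoding RNAs of chromosome 12 varied together from library to library and not with the group. Meg3, a polyadenylated noncoding RNA known as a growth suppressor, had 10.3, 8.15 and 5.83 CPM in Ground and 4.41, 8.85 and 8.96 CPM in Space. Rian, the host of a row of small nucleolar RNAs, had 28.2, 24.4 and 16.7 CPM in Ground and 13.9, 23.1 and 26.6 CPM in Space. Mirg, the host of a microRNA cluster, had 3.01, 1.22 and 0.964 CPM in Ground and 1.03, 2.08 and 2.76 CPM in Space. In each of the 3, Ground-1 was the highest library, Space-3 the next, and Ground-3 and Space-1 were the lowest 2. The highest library exceeded the lowest by 2.35 times for Meg3, 2.03 times for Rian and 3.12 times for Mirg.

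Dlk1, the paternally expressed gene at the other side of this cluster, which encodes a transmembrane protein of the Notch ligand family, had the same libraries at both ends. It had 34.1, 24.4 and 15.2 CPM in Ground and 14.9, 23.4 and 33.4 CPM in Space, with Ground-1 and Space-3 again highest. Its log2 fold change between groups was -0.040 (SE 0.35). Dio3, which encodes a deiodinase of thyroid hormone, had 2 to 12 counts a library and Rtl1, a retrotransposon-derived gene antisense to part of the cluster, had 0 in each of the 6, where the floor of 3 counts is 0.120 to 0.160 CPM.

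The log2 fold changes between groups were -0.13 for Meg3 (SE 0.31, 95% interval -0.86 to 0.59), -0.12 for Rian (SE 0.27, -0.74 to 0.49) and 0.16 for Mirg (SE 0.51, -1.02 to 1.35). Group means were 8.10 ± 2.25 and 7.40 ± 2.60 CPM for Meg3, 23.1 ± 5.86 and 21.2 ± 6.57 CPM for Rian and 1.73 ± 1.11 and 1.96 ± 0.872 CPM for Mirg in Ground and Space (SD, n = 3). The difference was in each case smaller than the SD within either group. The coefficient of variation over the 6 libraries was 28.5% for Meg3, 25.5% for Rian and 48.9% for Mirg, where counting alone gives 7.62%, 4.50% and 15.5%. A lower coefficient was found in 83.8%, 80.7% and 96.7% of tested genes.

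**Figure D4:**
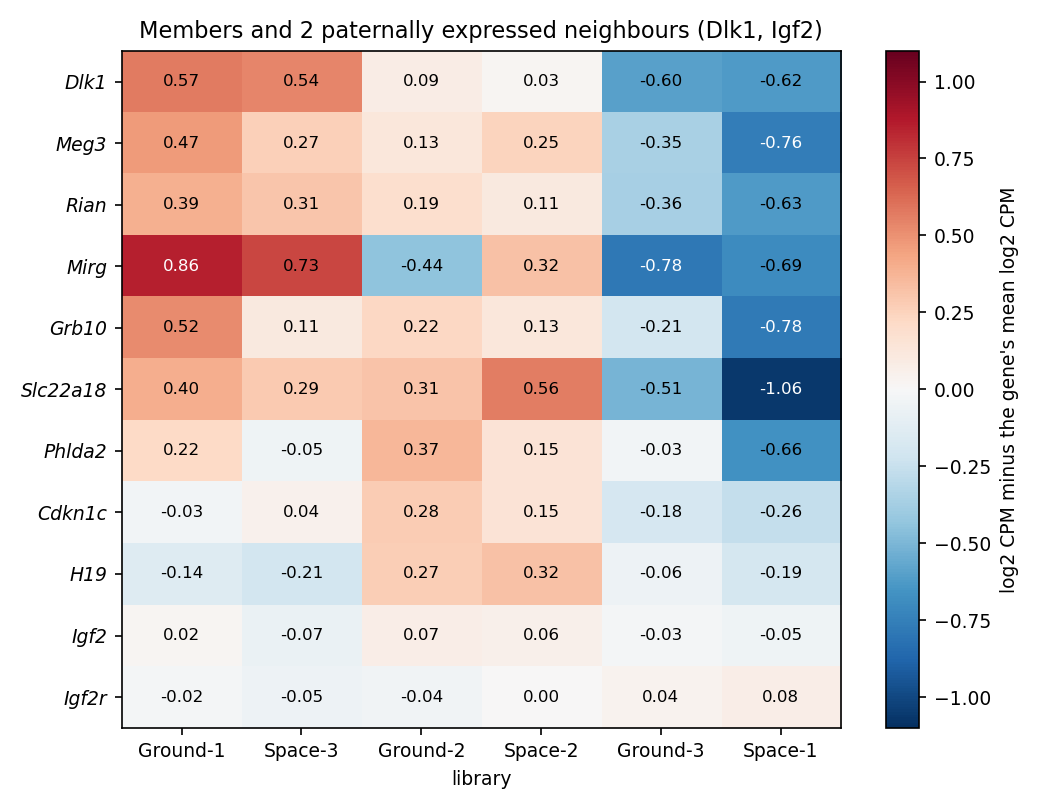
Log2 CPM of each gene (rows) minus its mean over the 6 libraries, with red above and blue below the mean. The log2 was taken here without a prior count. Each library is placed beside the one with the highest r to it over all genes after centring. Dlk1, Meg3, Rian and Mirg lie between 0.27 and 0.86 in Ground-1 and Space-3 and between -0.35 and -0.78 in Ground-3 and Space-1, while Igf2 and Igf2r stay between -0.07 and 0.08.

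The make-up of the chromosome 12 RNAs varied less than their level. Rian held 67.9% to 72.3% of the counts of Meg3, Rian and Mirg, and Meg3 held 22.8% to 26.0%. For Meg3 all 6 exact 95% intervals shared the span from 22.6% to 26.2%. Mirg held 7.23% in Ground-1 (5.71% to 9.01%) and 7.19% in Space-3 (5.64% to 9.02%), on 73 and 69 counts. Ground-2 had 3.62% (2.31% to 5.39%) on 23 counts, and Ground-3 had 4.104% (2.59% to 6.15%) on 22. The interval of Ground-2 lay below those of Ground-1 and Space-3. No difference between groups was detected in these shares (2-sided exact permutation p = 0.6 for Meg3, 0.8 for Rian and 0.4 for Mirg). Dlk1 likewise kept 72.3% to 78.9% of the counts of Dlk1 and Meg3 (2-sided exact permutation p = 0.5 between groups).

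**Figure D5:**
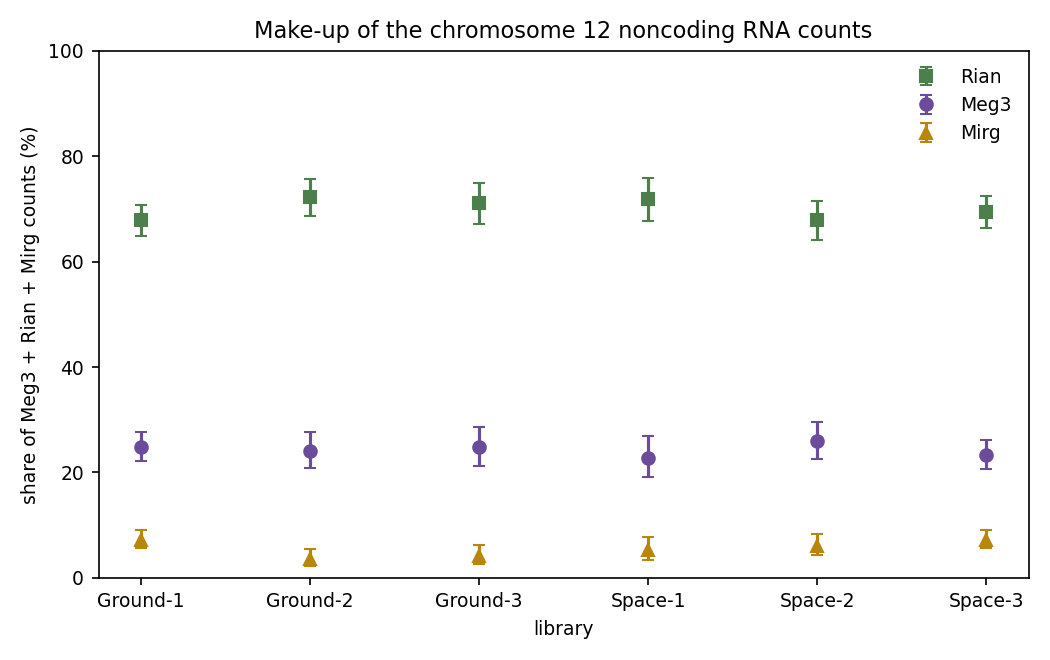
Share of the summed Meg3, Rian and Mirg counts held by each of the 3 RNAs in each library, with exact 95% intervals for counting error. Rian stays near 70%, Meg3 near 24% and Mirg between 3.62% and 7.23%.

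Over the 6 libraries, Pearson's r of log2 CPM was 0.98 between Meg3 and Rian, 0.84 between Meg3 and Mirg, 0.97 between Meg3 and Grb10 and 0.97 between Meg3 and Slc22a18. Igf2r ran the other way, with r of -0.94 to Rian, but its highest library exceeded its lowest by only 1.09 times, against 2.03 times for Rian. H19 stood apart, with r of 0.29 to Meg3, 0.22 to Rian and -0.13 to Mirg, and was nearest to Cdkn1c (0.76). These values describe 6 points that share libraries, and depth, and 1018 of the tested genes had r over 0.9 to Meg3. The genes most like each member were as follows. For H19 they were Usp43 (r of 0.998), Gfod2 (0.997) and Col17a1 (0.995), for Meg3 Nmnat2 (0.997), Gm5608 (0.997) and Mical2 (0.995), and for Rian Dcbld2 (0.997), Hmox1 (0.996) and Col6a4 (0.996). Mirg was nearest to Fbxw7 (0.995), Fgf18 (0.994) and Mafa (0.994), Cdkn1c to AY036118 (0.997) and Rab11fip5 (0.992), and Phlda2 to Fgd2 (0.992), Fbn1 (0.991) and Kcnk3 (0.991). Igf2r was nearest to Crim1 (0.997), Sos1 (0.993) and Cand1 (0.992), Grb10 to Clec10a (0.996), Aldh1a1 (0.996) and Ier5l (0.994), and Slc22a18 to Fam124a (0.997), Rps6ka4 (0.995) and Carhsp1 (0.995). No 2 members shared a gene in these lists.

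Some genes of other cell types shared their lowest or highest libraries with some of the members. In bulk libraries, fewer cells of a type and less RNA per cell cannot be told apart. The 28 listed markers of feeder fibroblasts, all of them tested, summed to 1300.3 to 1326 CPM in Ground and to 995, 1326 and 1163 CPM in Space-1 to Space-3. Of the 28 markers 0 were called by edgeR, and none was at 0. An unadjusted edgeR p under 0.05 was found for 7, against 92 of the 15104 tested genes. The log2 fold change was below 0 in 27 (median -0.30, beside -0.0020 over all tested genes). In 3 the Space libraries all lay below the Ground libraries, while 3.59% of all tested genes had the groups apart in either direction. Space-1 was the lowest library in 24 of the 28, in 6 of the 9 members (Meg3, Rian, Cdkn1c, Phlda2, Grb10 and Slc22a18) and in 20.4% of all tested genes. The part of feeder RNA in the members' values was not tested.

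The order seen for the chromosome 12 RNAs, with Ground-1 and Space-3 at the top, also appeared among some markers of spermatogonia and of other cells. Over all tested genes, 34.2% were highest in Ground-1 or Space-3 and 39.6% lowest in Ground-3 or Space-1. Of the 18 markers of undifferentiated spermatogonia, 4 (22.2%) were highest in the former libraries and 8 (44.4%) lowest in the latter. The list as a whole therefore did not stand out from all tested genes, and the genes named next are single markers. Etv5, which encodes a transcription factor induced by GDNF, had 259, 202 and 93.0 CPM in Ground and 99.1, 195 and 262 CPM in Space. Lhx1, a homeobox gene, had 64.4, 43.6 and 31.5 CPM in Ground and 35.0, 46.8 and 69.4 CPM in Space. Both thus had Ground-1 and Space-3 highest and Ground-3 and Space-1 lowest, as Dlk1 had, whereas Pou5f1, a pluripotency factor gene, ran the other way with 67.9, 75.6 and 158 CPM in Ground and 141, 74.3 and 69.6 CPM in Space. Nanos2, another of the 18 markers, was also highest in Ground-3 and Space-1. It had 4.78, 5.16 and 12.1 CPM in Ground and 11.4, 6.39 and 5.60 CPM in Space.

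The 8 endothelial markers, of which 6 were tested and none was at 0 in every library, summed to 59.9, 50.3 and 42.4 CPM in Ground and 42.9, 43.2 and 58.3 CPM in Space. Of the 6, 5 were highest in Ground-1 or Space-3 and 4 lowest in Ground-3 or Space-1. The widest range relative to its level was that of Kdr, a receptor for vascular endothelial growth factor, with 9.14, 2.93 and 1.14 CPM in Ground and 1.07, 3.57 and 7.56 CPM in Space, while Pecam1, an adhesion molecule of endothelium, was highest in Space-1 (8.85 CPM, against 7.70 CPM in Ground-1). The 9 macrophage markers, of which 4 were tested, summed to 25.5, 18.3 and 14.9 CPM in Ground and 18.7, 20.1 and 24.4 CPM in Space, mostly from Cd68, and C1qa was at 0 in each library. The 8 Sertoli cell markers summed to 28.1 to 30.2 CPM, with Fshr at 0. All 4 tested macrophage markers were highest in Ground-1 or Space-3 and lowest in Ground-3 or Space-1. The macrophage markers that did not pass the filter were at or near the floor. Besides C1qa they had 3 to 11 counts a library for Aif1, 0 to 2 for Csf1r, 0 to 2 for Tyrobp and 0 to 1 for Adgre1. Of the tested ones, those besides Cd68 had few counts a library, 1 to 26 for Ptprc, 6 to 28 for Cd14 and 11 to 43 for Fcer1g. Fcer1g had 11 counts in each of Ground-2, Ground-3 and Space-2, so its lowest library rests on the scaling. None of the markers of any of these lists was called by edgeR, and their part in the members' pattern was not tested.

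Beyond the members, 29 other genes known to be expressed from the maternal allele in at least some mouse tissues were listed. Of these, 28 were matched in the table and 20 were tested, of which edgeR called 0, with 0 at an unadjusted p under 0.05, and the groups of 0 were apart. The log2 fold change was above 0 in 5 and below 0 in 15, with a median of -0.040. Pon3, a lactonase gene, had the largest value in size, -0.77 (SE 0.48), at 0.288 to 1.81 CPM and again with its lowest level in Space-1. Gnas, which encodes the stimulatory G protein subunit, had 169, 147 and 229 CPM in Ground and 209, 149 and 164 CPM in Space, for -0.059 (SE 0.18). Ube3a, a ubiquitin ligase gene, ranged from 61.4 to 71.0 CPM and had a log2 fold change of -0.058 (SE 0.071). Ascl2, a transcription factor gene located near Cdkn1c and Igf2, had 3.19 to 3.75 CPM and a log2 fold change of 0.0047 (SE 0.18).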

How the data were processed

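Poly(A) RNA of 6 GS cell libraries was sequenced. The deposited values are raw read counts for each gene in each library, whole numbers that the authors neither scaled nor pooled. The submitters' processing notes name bcl2fastq 2.20, cutadapt 4.1, HISAT2 2.2.1, HTSeq 2.0.2 and mm10, and the methods add the GENCODE M21 annotation. The methods and the labels name different kits, sequencers and cutadapt releases. The strand setting and the treatment of reads shared between genes were not given in the sources used here, and both could move counts of overlapping genes.

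Genes were filtered with filterByExpr, which left 15104 of 32285, scaled by TMM and tested with the 2-sided quasi-likelihood F test of edgeR 4.0.16 (R 4.3.3), with Benjamini-Hochberg adjustment over all tested genes and a threshold of 0.05. The test was fitted to all 6 libraries without a block. SE is the size of the log2 fold change divided by the square root of F, and 95% intervals use the t distribution with the degrees of freedom of the fit. CPM values are relative to the scaled library size, and their log2 was taken with a prior count of 2. Alternatives were RLE scaling, total counts, leaving out mitochondrial genes, no filter, at least 60 counts in all, DESeq2 1.42.0, limma-voom (limma 3.58.1), a replicate block and leaving out each library. The procedure was tested on simulated counts.

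The members and the gene lists were chosen with earlier results of these data known. Named are the members, the paternally expressed genes of their clusters, the 3 genes with the highest Pearson r to each member (1 of them is not reported here), and genes of the other lists where a sentence needed their level. Pon3, Gnas, Ube3a, Ascl2, Etv5, Lhx1, Pou5f1, Nanos2, Pecam1, Kdr, Cd68, Ptprc, Cd14, Fcer1g, Aif1, Csf1r, Tyrobp, Adgre1, Dnmt1, Uhrf1, Trim28, Zfp57, Dnmt3l and Dppa3 were picked for naming after their values were seen. The labels call the libraries biological replicates, but do not say which came from the same culture.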

Additional observations from a re-analysis of the deposited data

How the results depend on the processing

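The count of members past the threshold was 0 in each of the 14 alternatives and the count of genes was 0 as well, from 0 to 0 in the fits without 1 library. Deviations of same-numbered libraries from their group means correlated at -0.54, 0.33 and -0.61, so the numbers were not taken as pairs, and with the replicate block 0 members and 0 genes passed (63 at an unadjusted p under 0.05). Under the 8 alternatives that kept all libraries, the 72 log2 fold changes of the members kept their sign. Without 1 library the sign of 7 members turned in at least 1 fit, and no turned value passed: without Ground-1 for Meg3, Rian and Slc22a18, without Ground-2 for H19, Mirg, Cdkn1c and Slc22a18, without Ground-3 for Mirg, without Space-1 for H19, Meg3, Rian, Cdkn1c, Igf2r and Slc22a18, and without Space-3 for H19 and Mirg. The ranges were -0.23 to 0.095 for H19, -0.32 to 0.13 for Meg3, -0.32 to 0.11 for Rian, -0.19 to 0.84 for Mirg, -0.14 to 0.094 for Cdkn1c, -0.016 to 0.050 for Igf2r and -0.34 to 0.30 for Slc22a18. Those of Phlda2 (-0.51 to -0.14) and Grb10 (-0.51 to -0.094) stayed below 0. Across all settings the smallest adjusted p of a member was 0.9997. Counting error was largest for Slc22a18 and Mirg, at 24.9% and 15.5% of the mean. Their coefficients of variation over the 6 libraries were larger, 36.4% and 48.9%.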

Other observations

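The 11 listed genes that set or keep imprints were all tested, with 0 called by edgeR and 0 at an unadjusted p under 0.05. Dnmt1, the maintenance methyltransferase, had 837 to 919 CPM, Uhrf1, which brings it to newly copied DNA, 622 to 742 CPM, and Trim28, a corepressor bound to imprinted control regions, 710 to 834 CPM. Zfp57, a zinc finger protein that recognises methylated control regions, had 23.8, 18.4 and 15.4 CPM in the Ground libraries 1 to 3 and 16.1, 20.1 and 23.6 CPM in the Space libraries 1 to 3. Dnmt3l, a cofactor of the enzymes that methylate DNA anew, had 3.46, 3.14 and 1.27 CPM in Ground and 1.07, 1.60 and 2.72 CPM in Space. Dppa3, known for shielding imprints in the early embryo, had 7.08, 12.1 and 15.7 CPM in Ground and 15.1, 10.4 and 5.88 CPM in Space. Zfp57, Dnmt3l and Dppa3 were picked for their spread between libraries, and the list as a whole had 4 of 11 genes highest in Ground-1 or Space-3 (36.4%, against 34.2% of all tested genes) and 4 of 11 lowest in Ground-3 or Space-1 (36.4%, against 39.6%). Between groups the log2 fold changes were 0.051 for Zfp57 (SE 0.19), -0.54 for Dnmt3l (SE 0.46) and -0.15 for Dppa3 (SE 0.38).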
